A study of Mus musculus with 2 samples.

Results

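The shear and vascular tone genes were 10 endothelial genes chosen by name: Klf2, Klf4, Nos3, Edn1, Ednrb, Ece1, Ptgs1, Ptgis, Slco2a1 and Kcnj8. All 10 were found among the 32285 genes of both count tables, and they were followed through the 7 endothelial clusters of the deposited annotation in each library. The libraries were single-cell RNA sequencing of sorted mouse liver endothelial and hematopoietic cells at postnatal day 15. One library came from control mice and the other from c-Maf KO endothelial cell mice, in which the transcription factor c-Maf (gene Maf) was lacking in endothelial cells. The sources used here do not give the strain, the alleles or the driver of the deletion. Each library pooled 1 male and 1 female mouse, so each genotype had 1 library and no replicate. Differences between the libraries therefore have no replicate check and no p-value, and all intervals are 95% intervals of counting error only.

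Blood flow over endothelium is sensed through junctional and ion channel proteins and raises the transcription factors Klf2 and Klf4, which in turn raise endothelial nitric oxide synthase (Nos3) and lower endothelin 1 (Edn1). Nitric oxide and prostacyclin relax the smooth muscle or pericytes around a vessel, whereas endothelin 1 contracts them through its A receptor and acts on endothelium through its B receptor (Ednrb), which also clears it. Liver sinusoids are fenestrated capillaries with low-pressure mixed portal and arterial blood, and their tone is set together with the stellate cells that wrap them.

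The control library held 2948 endothelial cells with 16238502 UMIs (unique molecular identifiers, 1 per captured transcript), and the c-Maf KO library held 2991 with 22621086. The median was 4985.5 UMIs per endothelial cell in the control library and 7320 in the c-Maf KO library. Maf itself was 2070 CPM (the gene's UMIs scaled to 1000000 UMIs of the summed cells) in control endothelial cells and 162 CPM in c-Maf KO endothelial cells. The annotation's cluster names are not spelled out, so they were checked against marker lists. The 14 sinusoidal markers summed to 12568 CPM in cluster S and 18551 CPM in S2 of the control library, and to between 2903 and 5346 CPM in KOS_1, KOS_2 and KOS_3 of the c-Maf KO library. The same sum was 11901 CPM in control and 4090 CPM in c-Maf KO cells of C-EC, and 1804 and 2028 CPM in PV. It thus did not set the KOS clusters apart from C-EC of the c-Maf KO library. Clusters S, S2, KOS_1, KOS_2 and KOS_3 are called sinusoidal cells below. The 16 large vessel markers were highest in PV, at 6744 CPM in control cells and 5977 CPM in c-Maf KO cells, and the 12 cycling markers in C-EC, at 5442 and 4264 CPM. Edn1 is itself on the large vessel list, so its level in PV is not independent of this check. Clusters were not spread evenly over the libraries: S and S2 held 2779 control and 336 c-Maf KO cells, and KOS_1 held 1 control and 1356 c-Maf KO cells. The 336 S and S2 cells of the c-Maf KO library had Maf at 1732 CPM, against 2158 CPM in the same clusters of the control library. Among them, 247 carried Xist and no Y-linked UMI and 0 the reverse, so clusters S and S2 of that library had no cell typed as male. There were 25 cell barcodes that occurred in both libraries.

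Promoters are shown for 4 of the 10 genes, 3 that were lower and 1 that was higher in the c-Maf KO library, because they had the lowest ratios or encode the endothelin ligand and receptor pair. Each is 250 bases before to 50 after a RefSeq transcription start in GRCm38.p6: Slco2a1 at chr9:103008237-103008536 (plus strand), Kcnj8 at chr6:142571565-142571864 (minus strand), Ednrb at chr14:103843652-103843951 (minus strand) and Edn1 at chr13:42301226-42301525 (plus strand). Capitals mark a match, on either strand, to the Maf recognition element half-site TGCTGA, the AP-1 element TGANTCA, the MEF2 element or the GATA element AGATAA. A half-site is part of the full T-MARE and C-MARE elements, which were searched too and found in none of the 4 windows.
Slco2a1: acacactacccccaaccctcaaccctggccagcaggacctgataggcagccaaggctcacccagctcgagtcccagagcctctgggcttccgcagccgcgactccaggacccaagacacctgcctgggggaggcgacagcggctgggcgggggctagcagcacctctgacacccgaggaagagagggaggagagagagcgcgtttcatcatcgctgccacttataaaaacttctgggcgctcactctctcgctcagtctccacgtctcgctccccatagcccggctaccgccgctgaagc
Kcnj8: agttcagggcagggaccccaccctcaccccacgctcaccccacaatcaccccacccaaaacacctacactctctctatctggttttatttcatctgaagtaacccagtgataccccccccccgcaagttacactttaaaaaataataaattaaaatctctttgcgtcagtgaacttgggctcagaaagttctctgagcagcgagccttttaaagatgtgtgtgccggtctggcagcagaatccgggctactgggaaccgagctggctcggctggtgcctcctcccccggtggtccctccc
Ednrb: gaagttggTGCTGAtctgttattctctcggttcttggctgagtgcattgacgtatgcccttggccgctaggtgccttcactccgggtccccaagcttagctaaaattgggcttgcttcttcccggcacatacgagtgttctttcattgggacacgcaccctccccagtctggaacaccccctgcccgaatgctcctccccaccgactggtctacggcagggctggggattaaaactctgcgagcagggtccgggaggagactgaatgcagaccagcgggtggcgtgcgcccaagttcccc
Edn1: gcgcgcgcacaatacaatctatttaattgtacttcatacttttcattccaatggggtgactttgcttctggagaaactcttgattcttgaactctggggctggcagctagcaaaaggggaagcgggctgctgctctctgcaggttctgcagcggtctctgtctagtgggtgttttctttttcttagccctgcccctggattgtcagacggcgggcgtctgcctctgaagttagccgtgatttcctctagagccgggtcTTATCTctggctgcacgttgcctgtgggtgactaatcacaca
The Ednrb window held 1 Maf half-site, and 19.5% of 32851 mouse promoters of this length hold one. The Edn1 window held 1 GATA element, which 11.2% hold. The Slco2a1 and Kcnj8 windows held none of these patterns. The Slco2a1 window lies inside the annotated gene, which starts at chr9:102988712, and the sequence at that start was not searched. A match describes letters in the window and shows no binding. The Klf2 window, not printed, held 1 MEF2 element, the class of site through which the flow-activated kinase Erk5 is known to act on Klf2, and 3.69% of promoters hold one.

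Over all endothelial cells, the c-Maf KO library had less Kcnj8, Slco2a1, Ednrb and Ptgs1 and more Edn1 and Ptgis. Klf2, Klf4, Nos3 and Ece1 stayed within 1.5-fold. A gene was called where the ratio was at least 1.5-fold, its counting interval left out equality and the gene had 50 or more UMIs over the compared cells. By this rule 2 of the 10 were higher, 4 lower and 4 neither. Over 11927 genes 29.7% were called, 14.2% higher and 15.5% lower. The median log2 ratio of the 10 genes was -0.33, against -0.08 over all genes with enough UMIs. Within sinusoidal cells alone the same 2 genes were higher and the same 4 lower, against 28.9% of 11519 genes called, 13.4% higher and 15.4% lower.

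**Figure D1:**
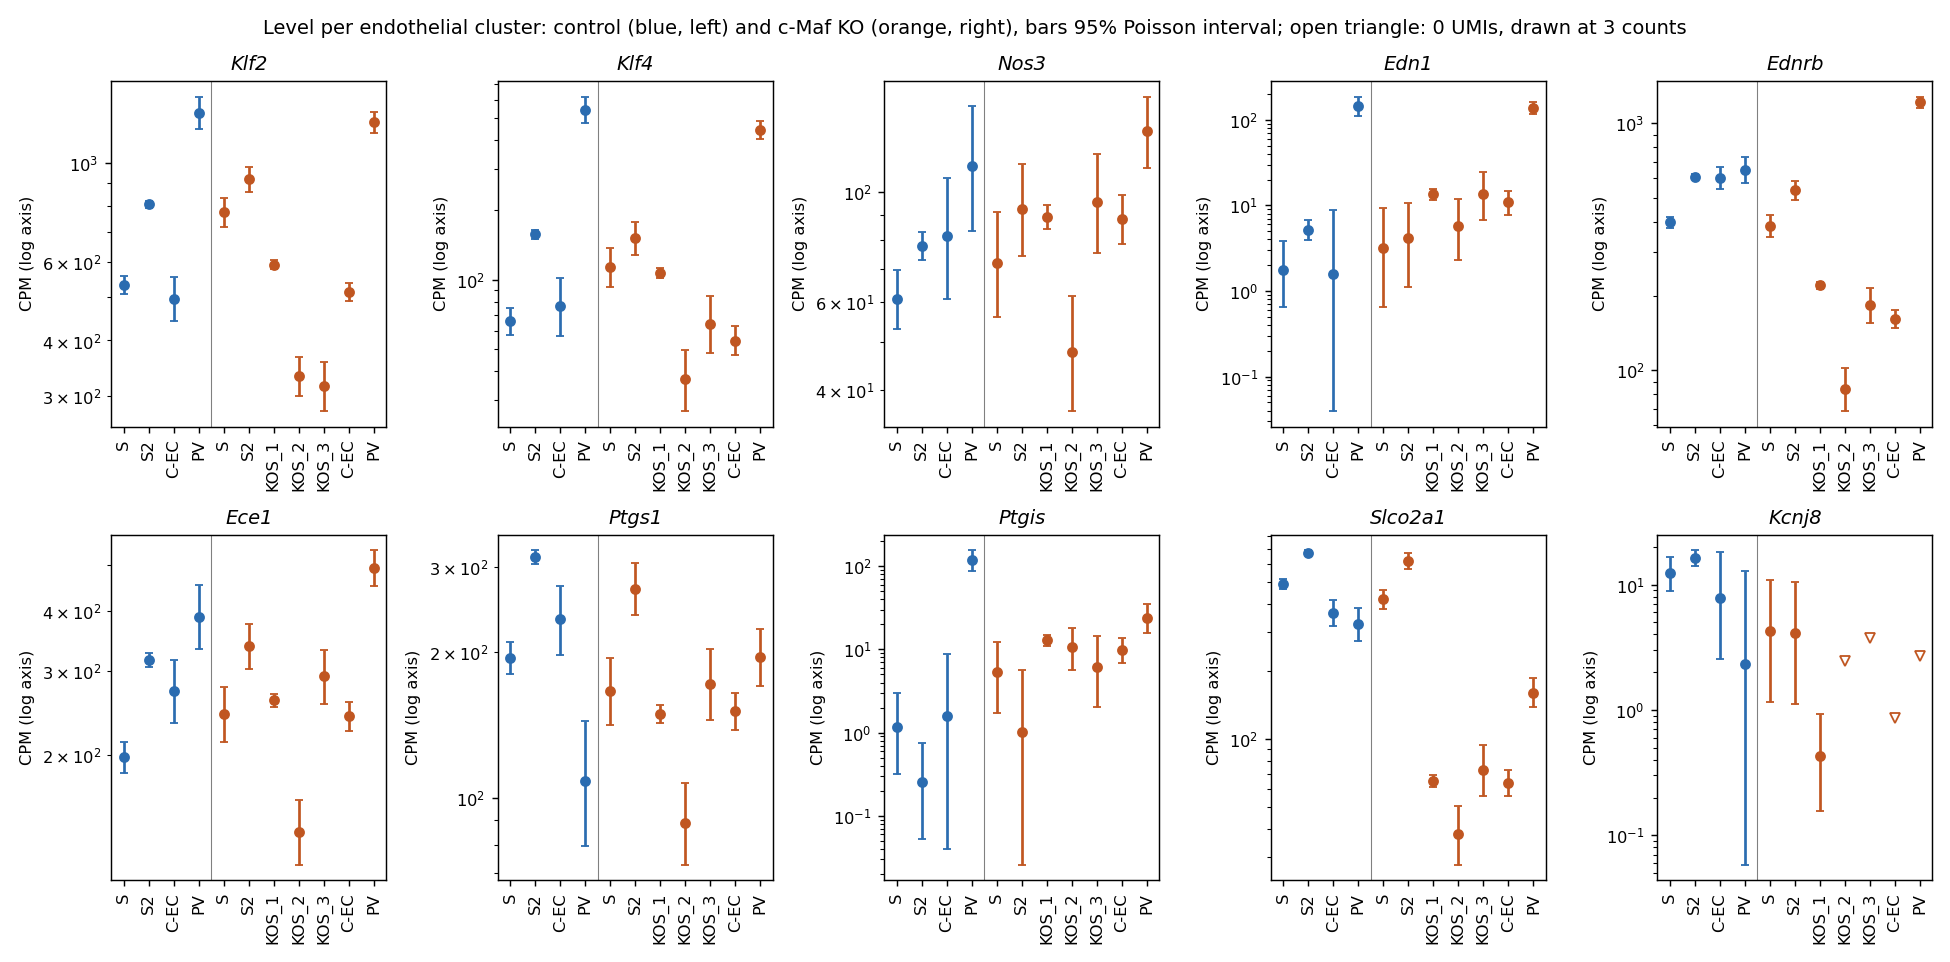
Level of each of the 10 genes in CPM (log axis) per endothelial cluster, control clusters in blue on the left and c-Maf KO clusters in orange on the right, with 95% Poisson intervals. Klf2, Klf4, Edn1 and Ptgis are highest in PV of the control library, Slco2a1 and Kcnj8 are highest in S2 of the control library, and open triangles mark clusters with 0 UMIs.

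Klf2 (chr8:72319033-72321656, GRCm38) encodes a zinc finger factor that keeps endothelium quiescent under steady flow. In the control library it was 531 CPM in S, 806 in S2, 496 in C-EC and 1292 in PV. Among c-Maf KO cells it was 774 CPM in S, 917 in S2, 591 in KOS_1, 333 in KOS_2, 316 in KOS_3, 514 in C-EC and 1232 in PV. PV was thus highest in both libraries and its 2 values overlapped in their intervals, and KOS_2 and KOS_3 were lowest and overlapped each other. Over sinusoidal cells Klf2 was 744 CPM in the control and 589 CPM in the c-Maf KO library, a log2 ratio of -0.34 (-0.38 to -0.30), short of 1.5-fold. B cells, a hematopoietic group of the same libraries, had 1501 CPM of Klf2 in the control and 1276 CPM in the c-Maf KO library, a log2 ratio of -0.23 (-0.27 to -0.20). The whole-endothelium log2 ratio of -0.30 minus that of B cells was -0.06 (-0.12 to -0.01). Other hematopoietic groups differed from B cells in their Klf2 log2 ratio. It was -0.47 (-0.55 to -0.40) in T cells, 0.0001 (-0.10 to 0.10) in neutrophils and 0.41 (0.29 to 0.53) in the macrophage cluster K. Control S, with less Klf2 than S2, had a median of 1864.5 UMIs per cell against 7382, and KOS_2 and KOS_3 had 1644.5 and 3178.5 against 10305 in KOS_1. The part of depth in these differences between clusters was not tested. In control S against S2, 6 of 9 genes were called lower and 0 higher, where 20.4% of 10228 genes were called, 18.4% lower and 2.03% higher. These 6 were Klf2, Klf4, Edn1, Ednrb, Ece1 and Ptgs1, and the median log2 ratio over all genes was -0.24.

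Klf4 (chr4:55527143-55532466) encodes the related flow-induced factor. It was 65.9 CPM in S, 157 in S2, 76.9 in C-EC and 544 in PV of the control library. Its c-Maf KO levels were 113 CPM in S, 151 in S2, 107 in KOS_1, 37.0 in KOS_2, 64.4 in KOS_3, 54.5 in C-EC and 443 in PV. PV again stood above every sinusoidal cluster, and below it each cluster overlapped its neighbour in the order. The sinusoidal log2 ratio was -0.41 (-0.50 to -0.32). Klf2 and Klf4 had a Pearson correlation of 0.93 in log2 level over the 11 endothelial cluster and library points, which share 2 libraries. The 24 immediate-early genes, transcripts that rise quickly when tissue is dissociated, summed to 1698 CPM in S, 2233 in C-EC, 4090 in S2 and 8246 in PV of the control library. This was the same order as Klf4, and that of Klf2 except that Klf2 was lower in C-EC than in S, with overlapping intervals. Their part in the Klf2 and Klf4 levels was not tested. Between the libraries the immediate-early sum was 3549 CPM in control and 3466 CPM in c-Maf KO sinusoidal cells. Of its 21 measured genes 8 were called higher and 0 lower, against 13.4% and 15.4% of all genes. Their median log2 ratio was 0.22 against -0.08 over all genes. In KOS_1 against S and S2 of the c-Maf KO library 13 of 21 were called higher and 0 lower (median log2 ratio 0.96). Of all genes 10.4% were called higher and 13.1% lower there, with a median of -0.06. The sum was 3868 CPM in KOS_1 and 2463 CPM in S and S2 of that library. S and S2 of the control library had 3549 CPM, so the reference group of this comparison was itself below its control counterpart.

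Within the c-Maf KO library, KOS_3 had less of both factors than KOS_1, with log2 ratios of -0.90 (-1.09 to -0.72) for Klf2 and -0.71 (-1.15 to -0.33) for Klf4. They were the only 2 of the 9 genes with enough UMIs that were called in this comparison, where 23.8% of 10387 genes were called, 10.4% lower and 13.4% higher.

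Nos3 (chr5:24364810-24384474), the endothelial nitric oxide synthase, varied least between clusters with its neighbours in the order all overlapping. It was 60.9 CPM in S, 77.8 in S2, 81.6 in C-EC and 113 in PV of the control library. The c-Maf KO clusters had 72.1 CPM in S, 92.6 in S2, 89.0 in KOS_1, 47.7 in KOS_2, 95.4 in KOS_3, 88.1 in C-EC and 132 in PV. The sinusoidal log2 ratio was 0.22 (0.11 to 0.33), under 1.5-fold, and with every cell reduced to 1128 UMIs it was 0.07 (-0.22 to 0.35). The annotation places Atg9b and the antisense gene Gm15587 across Nos3 on the other strand, and the sources used here do not say whether counting used strand. B cells had 2.50 CPM of Nos3 in the control library.

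The endothelin genes did not move together. Edn1 (chr13:42301476-42307990), which encodes the vasoconstrictor precursor, was concentrated in PV, at 145 CPM in the control and 139 CPM in the c-Maf KO library. It stands on the large vessel marker list by which PV was checked. Of 56 control PV cells 16 held an Edn1 UMI, and the 3 richest held 58.7% of the 63 UMIs. In c-Maf KO PV 47 of 135 cells held one, and the 3 richest held 27.1% of 155 UMIs. Among the other control clusters Edn1 was 1.76 CPM in S, 5.22 in S2 and 1.57 in C-EC, resting on 6, 61 and 1 UMIs. In the c-Maf KO library it was 3.18 CPM in S, 4.12 in S2, 13.4 in KOS_1, 5.76 in KOS_2, 13.6 in KOS_3 and 10.8 in C-EC. KOS_1 stood above S2 of the control library without overlap, whereas S and S2 of the c-Maf KO library overlapped the control clusters. Over sinusoidal cells Edn1 was 4.42 CPM in the control and 11.9 CPM in the c-Maf KO library, a log2 ratio of 1.42 (1.03 to 1.85). In KOS_1, 117 of 1356 cells held an Edn1 UMI, 8.63% (7.19 to 10.3% by Clopper-Pearson), and in control S2 35 of 1459 did, 2.40% (1.68 to 3.32%). With each cell reduced to 1128 UMIs the shares were 1.62% in KOS_1 and 0.411% in S2. In B cells, which lack the gene, the share was 0.0573% in the control library at a median of 3662.5 UMIs and 0.0409% in the c-Maf KO library at 2990 UMIs.

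Ednrb (chr14:103814625-103844402), the endothelin B receptor, was 397 CPM in S, 608 in S2, 602 in C-EC and 647 in PV of the control library. Levels in c-Maf KO clusters were 384 CPM in S, 535 in S2, 221 in KOS_1, 84.0 in KOS_2, 183 in KOS_3, 162 in C-EC and 1216 in PV. The KOS clusters and C-EC of the c-Maf KO library lay below all control clusters, and PV of the same library lay above all of them. The sinusoidal log2 ratio was -1.25 (-1.30 to -1.19), that of C-EC was -1.90 (-2.09 to -1.71) and that of PV was 0.91 (0.72 to 1.10). C-EC had 3 of its 7 genes with enough UMIs called lower and 0 higher, against 20.3% of 7961 genes called, 5.7% higher and 14.6% lower, with a median log2 ratio of -0.15 over those genes. Within the control library C-EC against S and S2 had Klf4 and Slco2a1 lower and 0 of 9 genes higher, against 19.8% of 10407 genes called, 7.64% lower and 12.1% higher.

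Ece1 (chr4:137862237-137965229), the protease that releases active endothelin 1, changed little. It was 198 CPM in S, 316 in S2, 273 in C-EC and 389 in PV of the control library. The c-Maf KO library had 244 CPM in S, 338 in S2, 260 in KOS_1, 138 in KOS_2, 292 in KOS_3, 241 in C-EC and 492 in PV. Only KOS_2, the shallowest c-Maf KO cluster, lay below control S without overlap, and the sinusoidal log2 ratio was -0.17 (-0.23 to -0.11). The other 7 genes of the endothelin list, among them Ednra and Edn3, had too few UMIs to be measured in endothelial cells, with 4 having 0 UMIs in both libraries.

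Of the prostanoid genes, Ptgs1 (chr2:36230426-36252272), the constitutive cyclooxygenase that makes the common precursor, was highest in sinusoidal cells. It was 195 CPM in S, 314 in S2, 234 in C-EC and 108 in PV of the control library. For c-Maf KO cells the levels were 166 CPM in S, 271 in S2, 149 in KOS_1, 88.9 in KOS_2, 172 in KOS_3, 151 in C-EC and 195 in PV. In the control library S and S2 both lay above PV without overlap. In the c-Maf KO library only S2 did, whereas S and KOS_3 overlapped PV and KOS_1 and KOS_2 lay below it. Ptgs1 fell by 0.90 on the log2 scale in sinusoidal cells (-0.97 to -0.83). Kupffer cells, the liver macrophages, had 531 CPM of Ptgs1 in the control and 363 CPM in the c-Maf KO library, and the 13 macrophage markers summed to 378 and 71.8 CPM in the sinusoidal cells of the 2 libraries. The part of macrophage RNA in the sinusoidal Ptgs1 level was not tested.

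Ptgis (chr2:167191805-167240604), which converts that precursor to prostacyclin, was near 0 in control sinusoidal cells, with 4 UMIs in S and 3 in S2. Its level was 0.462 CPM over the control sinusoidal cells and 11.4 CPM over those of the c-Maf KO library, a log2 ratio of 4.53 (3.56 to 5.96). In the c-Maf KO library it was 5.30 CPM in S, 1.03 in S2, 12.9 in KOS_1, 10.7 in KOS_2, 6.19 in KOS_3 and 9.98 in C-EC. Its 181 UMIs in KOS_1 came from 131 cells, of which the 3 richest held 7.18%, so the level did not rest on a few cells. In control B cells Ptgis had 0 UMIs. In the macrophage cluster K it was 11.6 CPM in the control and 38.0 CPM in the c-Maf KO library. These levels rested on 37 and 35 UMIs, and 1 c-Maf KO cell held 20 of the 35. Among the endothelial clusters of the c-Maf KO library only PV, at 24.2 CPM, lay above KOS_1 without overlap. PV without its 6 cells holding Dcn or collagen transcripts had 4.76 CPM, below KOS_1.

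Slco2a1 (chr9:102988712-103096002) encodes the transporter that takes prostaglandins out of the blood into the cell. It was 490 CPM in S, 674 in S2, 364 in C-EC and 325 in PV of the control library. Among c-Maf KO cells it was 418 CPM in S, 621 in S2, 65.2 in KOS_1, 37.9 in KOS_2, 73.1 in KOS_3, 63.9 in C-EC and 161 in PV. All 3 KOS clusters and C-EC of that library lay below every other point, with S and S2 near their control levels. The sinusoidal log2 ratio was -2.49 (-2.56 to -2.42), C-EC had -2.51 (-2.78 to -2.24) and PV had -1.01 (-1.34 to -0.68). Hpgd, the enzyme that degrades prostaglandins once inside, was 410 CPM in control and 71.1 CPM in c-Maf KO endothelial cells, a log2 ratio of -2.53 (-2.61 to -2.45). Hpgd also stands on the list of lung endothelial markers. Slco2a1 was lower outside endothelium too, as described with the other cells.

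Kcnj8 (chr6:142564837-142571614) encodes the Kir6.1 pore of an ATP-sensitive potassium channel, best known from pericytes and smooth muscle. It was 12.3 CPM in S, 16.2 in S2, 7.84 in C-EC and 2.30 in PV of the control library, the last on 1 UMI. In the c-Maf KO library it was 4.24 CPM in S, 4.12 in S2 and 0.427 in KOS_1, and 0 UMIs were found in KOS_2, KOS_3, C-EC and PV. Zero counts allow up to 2.47 CPM in KOS_2 and 0.855 CPM in C-EC. The sinusoidal log2 ratio was -4.26 (-5.20 to -3.53), and C-EC, with 5 control UMIs, had too few to be measured. In control S2, 153 of 1459 cells held a UMI, 10.5% (8.96 to 12.2%), and the 3 richest cells held 5.26% of 190 UMIs. In T cells of the same library the share was 2.46% at a median of 5789 UMIs, and in B cells 0 of 1744 cells held one. With each cell reduced to 1128 UMIs the share was 1.71% in S2 and 0.707% in T cells. Abcc9, the sulfonylurea receptor subunit that pairs with Kir6.1, was 81.9 CPM in control and 22.4 CPM in c-Maf KO endothelial cells, a log2 ratio of -1.87 (-2.02 to -1.72). The 18 stellate cell and pericyte markers summed to 30.8 CPM in control and 6.22 CPM in c-Maf KO sinusoidal cells, with 17 and 16 of the 18 detected and Dcn the most abundant at 10.1 and 1.39 CPM. All 4 markers with enough UMIs there were called lower, and in control S2 the markers Pdgfrb, Ngfr and Higd1b were at 0. The part of these cells' RNA in the Kcnj8 level was not tested.

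In clusters S and S2, where c-Maf KO cells kept Maf, the c-Maf KO side had 247 female-type and 0 male-type cells by their sex-linked transcripts, and the control side 688 and 827. In all of these cells 1 of the 9 genes with enough UMIs was called between the libraries, against 7.43% of 10419 genes, 3.68% higher and 3.75% lower. It was Kcnj8, at 15.4 CPM in the control and 4.18 CPM (8 UMIs) in the c-Maf KO library, a log2 ratio of -1.79 (-3.11 to -0.88). Slco2a1 and Ednrb each had a log2 ratio of -0.28 there. In female-type cells of both libraries Ednrb was called lower as well as Kcnj8, from 852 to 470 CPM, a log2 ratio of -0.86 (-0.97 to -0.75), and Slco2a1 had -0.53 (-0.64 to -0.43), short of 1.5-fold. Ptgis had only 7 control and 6 c-Maf KO UMIs and was not measured. Within the c-Maf KO library, KOS_1 was set against these S and S2 cells, and 4 of the 9 genes with enough UMIs were called, against 23.4% of 10502 genes, 10.4% higher and 13.1% lower. Edn1 had a log2 ratio of 1.78 (0.81 to 3.21) and Ptgis of 1.93 (0.89 to 3.504), each resting on 7 and 6 UMIs in S and S2. Slco2a1 had -2.998 (-3.13 to -2.87), from 521 to 65.2 CPM. Ednrb had -1.06 (-1.17 to -0.95). All of these cells came from 1 library, which pooled a male and a female mouse. In female-type cells only, with 247 cells in S and S2 and 920 in KOS_1, these 4 genes were called in the same directions, and Ptgs1 was called too, with a log2 ratio of -0.66.

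**Figure D2:**
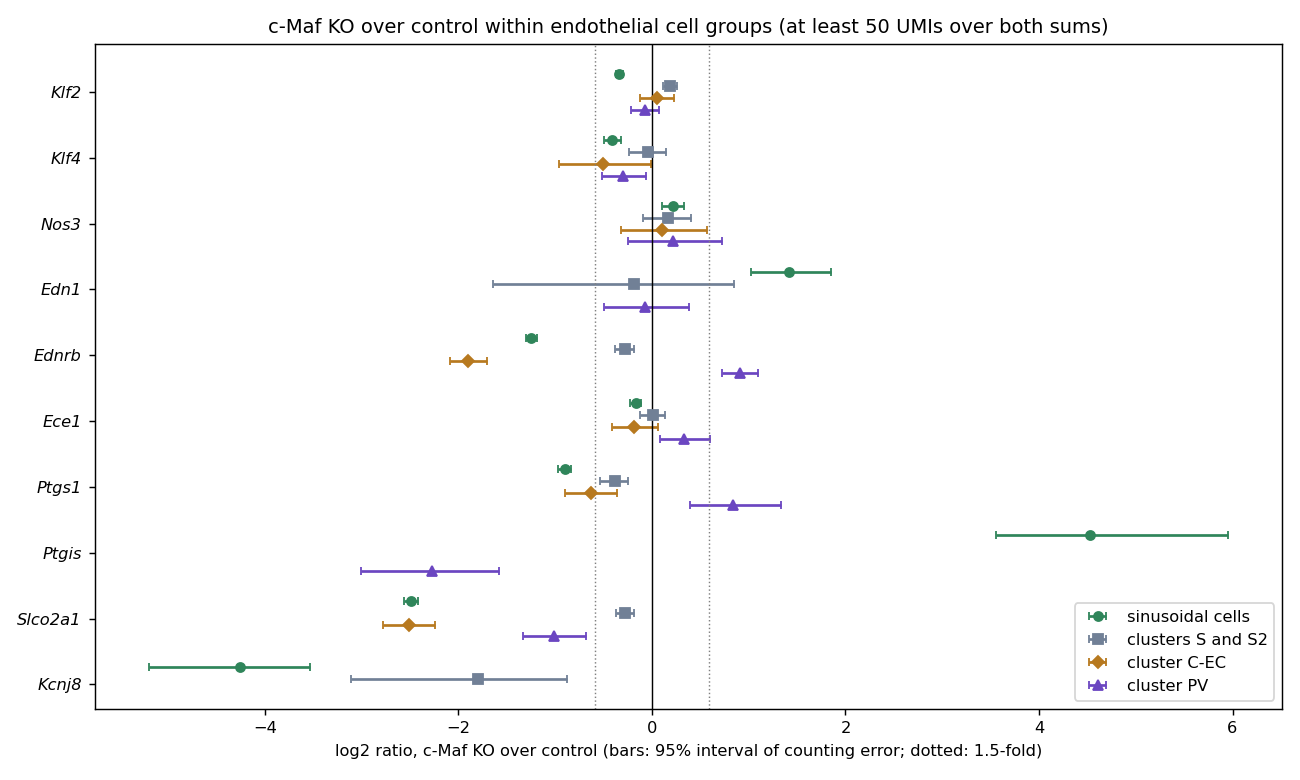
Log2 ratio between the libraries (c-Maf KO over control) for each gene in sinusoidal cells, clusters S and S2, C-EC and PV, with 95% intervals of counting error and dotted lines at 1.5-fold. Ednrb and Ptgs1 lie left of 0 in sinusoidal cells and C-EC and right of 0 in PV, whereas in S and S2 all genes but Kcnj8 lie within the dotted lines. Genes under 50 UMIs are not drawn.

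PV differed from the sinusoidal clusters in both libraries. In the control library Klf2, Klf4, Nos3, Edn1 and Ptgis were higher in PV than in S and S2, and Ptgs1, Slco2a1 and Kcnj8 were lower, so 8 of 10 genes were called, against 22.9% of 10381 genes, 11% higher and 11.9% lower. Kcnj8 rested on 1 UMI in PV. Edn1 had the log2 ratio 5.03 (4.51 to 5.55), with 58.7% of its PV UMIs in 3 cells, and Klf4 had 1.997 (1.79 to 2.19). Ptgis had 7.90 (6.84 to 9.37), and 4.26 (1.56 to 6.27) on 10 UMIs without the cells holding collagen transcripts described next, which ended its call and brought Ece1 to 0.66. Ednrb did not differ by 1.5-fold in the control library, with a log2 ratio of 0.21 (0.03 to 0.38). In the c-Maf KO library, PV against all its sinusoidal cells had 7 of 9 genes called higher and 0 lower, against 18.7% of 10851 genes called, 11.9% higher and 6.83% lower. Ptgis was among the 7, at 24.2 CPM in PV against 11.4 CPM, but in the 129 PV cells without Dcn or collagen transcripts it was 4.76 CPM (1.55 to 11.1), so its direction turned. Ednrb had a log2 ratio there of 2.37 (2.28 to 2.46) and Ece1 had 0.94 (0.81 to 1.07).

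Between the libraries, PV had Ednrb and Ptgs1 higher and Ptgis and Slco2a1 lower in the c-Maf KO cells, 4 of 9 genes with enough UMIs, against 12.3% of 5063 genes, 6.08% higher and 6.26% lower. Ptgs1 went from 108 to 195 CPM, a log2 ratio of 0.84 (0.39 to 1.34). Ptgis went from 117 to 24.2 CPM, a log2 ratio of -2.27 (-3.01 to -1.58). Of the 51 Ptgis UMIs in 56 control PV cells, 48 came from 9 cells that also held a UMI of the fibroblast and stellate cell genes Dcn, Col1a1, Col1a2 or Col3a1. In the 135 c-Maf KO PV cells 22 of 27 Ptgis UMIs came from 6 such cells. Without these cells Ptgis had 3 UMIs in the control and 5 in the c-Maf KO library, and its call was lost, with a log2 ratio of -0.99 (-3.27 to 1.78). The 18 stellate and pericyte markers summed to 1384 CPM in control and 517 CPM in c-Maf KO PV cells. Ednrb kept its call without the Dcn and collagen-holding cells, at 793 CPM in the control and 1227 CPM in the c-Maf KO library, a log2 ratio of 0.63 (0.44 to 0.83). Ptgs1 kept it with 1.11 (0.57 to 1.73) and Slco2a1 with -1.003 (-1.37 to -0.62). The 3 cells richest in Ednrb held 44.1% of its UMIs in control PV and 12.7% in c-Maf KO PV.

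Each library pooled a male and a female mouse, so cells were typed by their sex-linked transcripts to see whether a difference was present in cells of both. Cells with Xist and no Y-linked UMI are called female-type, the reverse male-type, and cells with neither or both were left out. Endothelial cells typed this way numbered 772 female-type and 846 male-type in the control library, and 1692 and 328 in the c-Maf KO library. In sinusoidal cells Slco2a1 was lower in both, its log2 ratio being -2.68 for the female type and -2.60 for the male type. Kcnj8 was lower by -4.15 and -4.02 and Ptgs1 by -0.88 and -0.95. The 2 types differed in their mix of clusters. In the c-Maf KO library 247 of 1398 female-type sinusoidal cells lay in S and S2, and 0 of 255 male-type ones. Female-type cells of that library had 523 CPM of Slco2a1 in S and S2 and 56.5 CPM in KOS_1. The part of this mix in the ratios was not tested. With the clusters pooled, Slco2a1, Kcnj8 and Ptgs1 gave close ratios in both types.

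Other genes did not. Ednrb was 848 CPM in female-type and 384 CPM in male-type control sinusoidal cells, and 221 and 323 CPM in those of the c-Maf KO library. The female type had a log2 ratio of -1.94 (-2.01 to -1.88) and the male type one of -0.25 (-0.37 to -0.13), which was no call. Klf2 was 701 and 832 CPM in female- and male-type control cells, and 679 and 332 CPM in c-Maf KO cells. The female type had a log2 ratio of -0.05 (-0.10 to 0.01) and the male type one of -1.32 (-1.44 to -1.21), a call that the pooled cells did not have. Klf4 was called lower in both types, at -0.61 and -0.60, though not in the pooled cells. Edn1 was called higher in both, at 0.78 (0.27 to 1.34) for the female type and 2.34 (1.51 to 3.26) for the male type. Ptgis rose from 0.890 to 10.6 CPM in female-type cells, and male-type cells had 0 control UMIs, which allows up to 0.526 CPM, and 18.01 CPM in the c-Maf KO library. Over all endothelial cells, PV included, Edn1 and Ptgis lost their call in female-type cells, with log2 ratios of 0.23 (-0.11 to 0.59) and 0.41 (-0.03 to 0.89). Each type stands for 1 mouse per library, so the sex of the mouse, the individual and the genotype cannot be told apart.

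**Figure D3:**
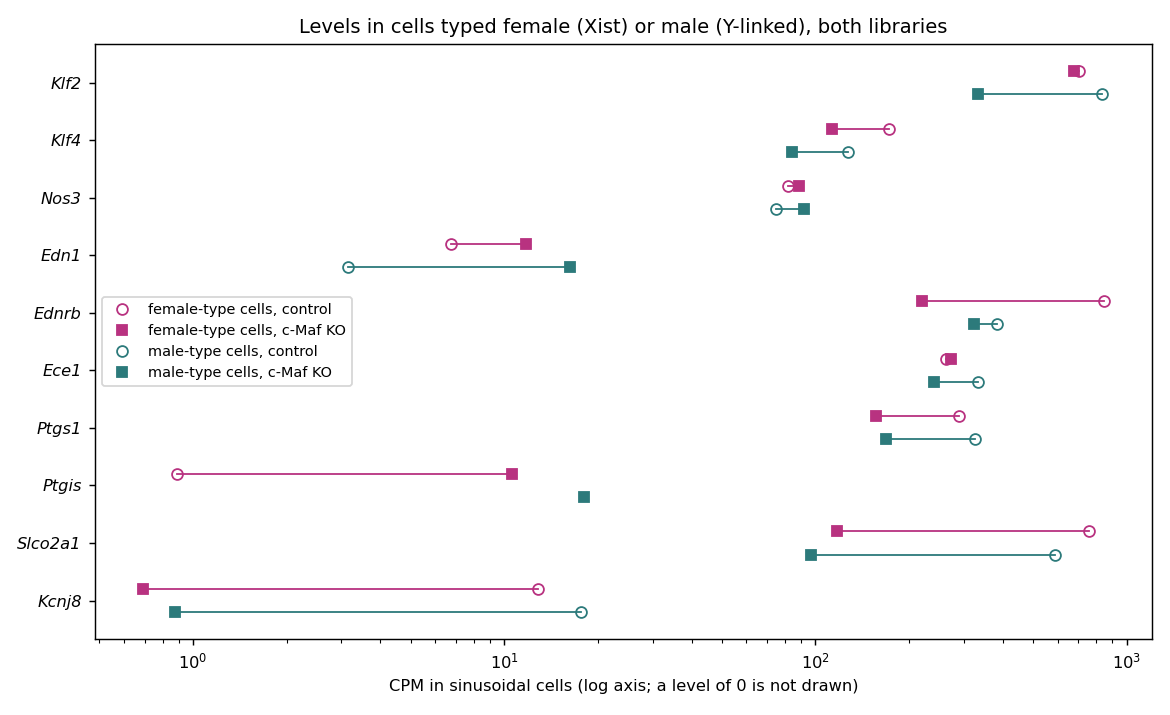
CPM (log axis) of the 10 genes in sinusoidal cells typed female or male, open circles for control and filled squares for c-Maf KO, joined where both are above 0. Slco2a1, Kcnj8 and Ptgs1 shift alike in both types, whereas Ednrb shifts mainly in female-type cells and Klf2 mainly in male-type cells.

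Some of the genes also differed between cells sorted by side of the sinusoid within the control library. Cells of S and S2 were reduced to 1128 UMIs and sorted by transcripts of the central side (Wnt2, Wnt9b, Rspo3, Kit and Cdh13) or the portal side (Efnb2, Dll4, Ltbp4, Ntn4 and Adgrg6), giving 599 cells with central transcripts only and 678 with portal transcripts only. Ptgs1 was 379 CPM in the central and 197 CPM in the portal cells, a log2 ratio of portal over central of -0.94 (-1.24 to -0.64). Slco2a1 was 685 and 519 CPM, a log2 ratio of -0.40 (-0.60 to -0.20), and Klf2 was 753 and 599 CPM, a log2 ratio of -0.33 (-0.52 to -0.15). A further 452 cells held both kinds of transcript and 701 held neither. These had 353 and 205 CPM of Ptgs1, 673 and 511 CPM of Slco2a1, and 883 and 549 CPM of Klf2. Klf2 in cells with both kinds was thus not between the 2 sides, though its interval overlapped that of central cells. Edn1 had 7 UMIs in the central and 0 in the portal cells. Ednrb, Ece1, Nos3, Klf4 and Kcnj8 had intervals that included equality. In KOS_1 of the c-Maf KO library only 48 of 1356 cells held central transcripts alone, against 651 with portal transcripts alone, so levels there were not compared by side. These gene sets were chosen after the levels were seen.

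The lists of neighbouring pathway genes gave 36 of 87 measured genes called over all endothelial cells, 14 higher and 22 lower, against 29.7% of all genes called, 14.2% higher and 15.5% lower. Of the 32 measured flow-sensing and flow-responsive genes, 2 were higher and 8 lower, a share near that 29.7%. Thbd, the anticoagulant cofactor thrombomodulin that Klf2 is known to raise, was 153 CPM in control and 45.9 CPM in c-Maf KO cells, a log2 ratio of -1.73 (-1.84 to -1.63). P2rx4, an ATP-gated channel that admits calcium under flow, had -1.96 (-2.12 to -1.80). Plxnd1, a guidance receptor that senses shear, had -0.77, the angiopoietin receptor Tek had -0.81, the haem oxygenase Hmox1 had -0.98, the related factor Klf6 had -0.65 and the G protein subunit Gnaq had -0.60. Klf15 had the lowest ratio of the list, -2.34, on 63 control and 17 c-Maf KO UMIs. Ccn2, a matricellular target of the mechanosensitive Yap pathway, had 2.82 (2.49 to 3.17), from 4.99 to 35.3 CPM, and Txnrd1 had 0.89. The mechanosensitive channel Piezo1 had 0.28 and was not called.

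Of 25 measured nitric oxide pathway genes, 9 were higher and 5 lower, against 14.2% and 15.5% of all genes, with a list median of 0.11. Cav1, the caveolar protein that holds the synthase inactive, was 42.5 CPM in control and 81.1 CPM in c-Maf KO cells, a log2 ratio of 0.93. Ddah1, which degrades an inhibitor of the synthase, had 1.40, and Gchfr, a regulator of cofactor synthesis, had 0.82. The arginine transporter Slc7a1 had 1.93. The chaperones Hsp90aa1 and Hsp90ab1 had 0.78 and 0.80. Nos2, the inducible synthase, went from 10 to 110 UMIs, a log2 ratio of 2.92 (2.05 to 4.08). The arginine transporter Slc7a7 had -2.53, Arg1 had -1.49 on 77 and 38 UMIs, and the guanylate cyclase subunit Gucy1a1 had -1.18 on 41 and 25. Another guanylate cyclase subunit, Gucy1b1, went the other way and was called higher, at 1.84 (1.37 to 2.36) on 42 and 211 UMIs. The 12 cycling markers were all called higher too, at 261 CPM in control and 784 CPM in c-Maf KO endothelial cells, whereas 9 of 11 macrophage markers were lower, summing to 369 and 65.0 CPM, and 9 of 11 hepatocyte markers, summing to 195 and 69.1 CPM. The part of cycling, macrophage and hepatocyte RNA in the ratios of this and the other lists was not tested.

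The prostanoid list leaves out Ptgs1, Ptgis and Slco2a1, of which Ptgis was called higher and the other 2 lower over all endothelial cells. Of the 10 measured genes on the list, 0 were higher and 2 lower, where 29.7% of all genes were called in either direction. The 2 lower genes of the list were Hpgd as above and the thromboxane synthase Tbxas1 at -1.44 on 53 and 27 UMIs. The prostaglandin E synthases Ptges2 and Ptges3 had 0.32 and 0.34, Akr1b3 had 0.39 and the carbonyl reductase Cbr1 had -0.52, none of them called. Of 7 measured potassium channel genes, 0 were higher and 3 lower, against 14.2% and 15.5% of all genes, among them Abcc9 above and Kcnq1 at -1.14. Kcnk6, Kcne3 and Kcnk5 had -0.25, 0.09 and 0.53 and were not called. Kcnj11, the pore of the other ATP-sensitive channel, had 0 UMIs in both libraries.

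Among 13 measured genes for other vasoactive peptides and receptors, 3 were higher and 4 lower, against 29.7% of all genes called. Npr1, the natriuretic peptide receptor, was 329 CPM in control and 125 CPM in c-Maf KO cells, a log2 ratio of -1.40. Calcrl, the receptor for adrenomedullin and calcitonin gene-related peptide, had -1.40, from 380 to 144 CPM, and the adenosine receptor Adora2a had -0.82. Adm, the adrenomedullin ligand, had 1.01 (0.79 to 1.24), and the angiotensin-converting enzyme Ace had 0.79. Chrm3, the muscarinic receptor of acetylcholine, had 1 control UMI and 331 c-Maf KO UMIs, a log2 ratio of 7.31 (5.40 to 13.2).

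**Figure D4:**
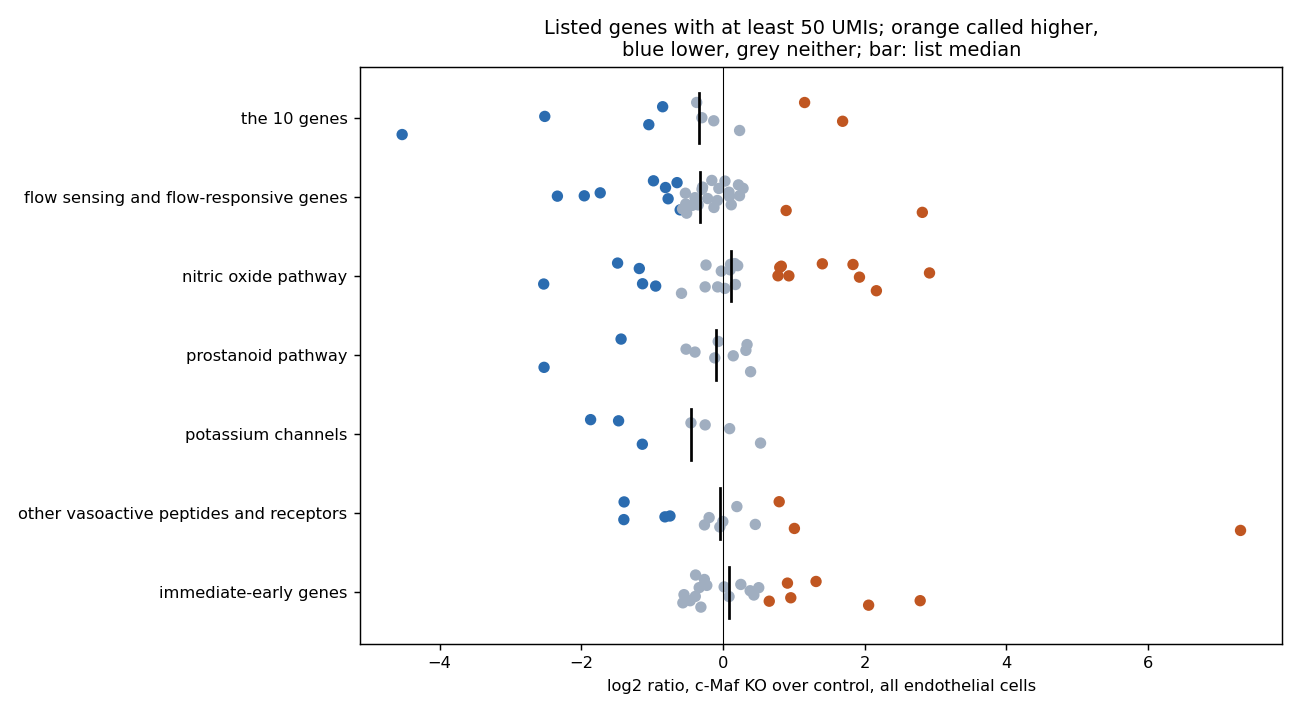
Log2 ratio between the libraries in all endothelial cells, c-Maf KO over control, for each listed gene with at least 50 UMIs, orange called higher, blue lower and grey neither, with a bar at each list median. Potassium channel and prostanoid genes have no orange point, whereas the nitric oxide list has 9.

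The same 10 genes were followed in hematopoietic cells, where most are low, as a measure of how far the libraries differed outside endothelium. In B cells 1 of 5 measured genes was lower, Slco2a1 from 5.13 to 2.33 CPM, and 0 were higher, against 9.83% of 9567 genes called, 6.02% higher and 3.8% lower. In T cells 3 of 6 were lower and 0 higher, against 5.58% of 9808 genes, 2.45% higher and 3.13% lower. They were Slco2a1, from 19.4 to 2.95 CPM, Ednrb, from 19.99 to 4.06 CPM, and Ptgs1. Neutrophils had 1 of 4 genes lower, Ednrb from 25.7 to 6.01 CPM, and 0 higher, against 8.76% of 6186 genes, 3.46% higher and 5.3% lower. In the macrophage cluster K 3 of 7 genes were higher and 2 lower, against 11.1% of 7756 genes, 4.45% higher and 6.61% lower. Klf4, Ednrb and Ptgis were the 3 higher there, and Ece1 and Slco2a1 the 2 lower. Slco2a1 was 95.5 CPM in control and 10.9 CPM in c-Maf KO cells of K, and Ednrb was 95.5 and 250.04 CPM. The 14 sinusoidal markers summed to 533 CPM in control and 140.1 CPM in c-Maf KO T cells, with 13 of 14 called lower and a median log2 ratio of -1.83, and in B cells 8 of 13 were lower. The part of endothelial RNA carried in these cells was not tested.

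Across all 39 cluster and library points with at least 50 cells, the genes most like each of the 10 by Pearson correlation of log2 level were named among 11995 genes. The best match was Sema3f for Nos3 (r = 0.99), Tspan7 for Slco2a1 (0.98), Notch4 for Ece1 (0.96), Dab2 for Ednrb (0.96), Plod1 for Ptgs1 (0.95), C1qtnf9 for Edn1 (0.94), Fblim1 for Ptgis (0.89), Tpbgl for Kcnj8 (0.88), Myadm for Klf4 (0.79) and Tsc22d3 for Klf2 (0.69). The next were Fermt2 and Ecscr for Nos3, Wnt2 and Gja1 for Slco2a1, Gpr4 for Ece1, Aqp1 and Ptprb for Ednrb, Camk1 and Tspan15 for Ptgs1, AU021092 and Dnm3 for Edn1, Adgrg6 and Slc16a9 for Ptgis, Gm46565 and Ralgapa2 for Kcnj8, Ceacam1 and Atf3 for Klf4, and Gucd1 and St3gal1 for Klf2. Klf2 and Klf4, which hematopoietic clusters also express, had the weakest matches. The points share 2 libraries and differ in depth, so these values are a description.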

How the data were processed

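Per the labels, sorted liver cells were sequenced with 10X Chromium. The authors deposited 2 tables of whole-number UMI counts per gene and barcode, without normalization, and 1 annotation table with a cluster name, genotype and cell cycle phase per cell (other labels) and the percent of mitochondrial UMIs. The submitters' processing notes name Cell Ranger 4.0.0, Seurat 3.2.3, FastQC 0.11.3 and mm10, with no role or order. The sources used here do not say how reads were aligned and counted or whether doublets were removed.

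Counts were summed over the annotated cells of a cluster and library (Python 3.11.15, SciPy 1.17.1), leaving out the barcodes without annotation. The control library held 9038 barcodes and 7669 annotated cells, and the c-Maf KO library 9058 and 8166. Levels are CPM with exact Poisson intervals, and ratios have exact conditional binomial intervals, with 0.5 UMI added for the log2 value. The call rule was tested on simulated data. No p-value was computed, since each genotype is 1 library. Intervals and floors (3 counts) cover counting error only, and in summed cells fewer cells of a type and less RNA per cell cannot be told apart. The 10 genes and the pathway and marker lists were chosen with earlier results of these data known. The text names all 10, each pathway list's called genes with 50 CPM or more in a library, its 3 highest and 3 lowest ratios (50 UMIs or more), and the 3 genes most like each of the 10. A few genes that this rule names are not reported here. Of the listed symbols, 2 were not matched and not used. Scrublet (Scanpy 1.11.5, expected rate 0.06) marked 127 control and 173 c-Maf KO cells, which were kept. Its rate was set after the default marked almost no control cell. Promoters are RefSeq sequences of GRCm38.p6, with none found for Nos3 and Ptgis. Gene positions are from GENCODE M21 (GRCm38).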

Additional observations from a re-analysis of the deposited data

Results flagged for a closer look

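The c-Maf KO over control ratio of 3 genes went in opposite directions in sinusoidal cells and in PV. For Ednrb the sinusoidal log2 ratio minus that of PV was -2.15, for Ptgs1 it was -1.74 and for Ptgis it was 6.80. The difference was not tested, since each genotype is 1 library. For Ptgis in PV, 48 of 51 control UMIs came from 9 cells that also held Dcn or collagen transcripts.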

How the results depend on the processing

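No paired analysis was possible because each genotype is 1 library. The count of the 10 genes called, 6 in sinusoidal cells, 4 in PV, 3 in C-EC and 1 in clusters S and S2, depended on the settings as follows. With cells reduced to equal UMIs it was 3 in sinusoidal cells, 1 in PV, 2 for KOS_1 over S and S2 within the c-Maf KO library (4 otherwise) and 4 for PV over S and S2 within the control library (8 otherwise). Each lost call fell under 50 UMIs, except Nos3 in PV over S and S2, whose interval then included equality. With a minimum of 20 UMIs it was 5 in C-EC, and with none it was 6 in C-EC and 2 in clusters S and S2. In female-type cells it was 2 in clusters S and S2 (Kcnj8 and Ednrb), and in male-type cells it was 4 for PV over S and S2 within the control library. Which genes were called also changed by type. Female-type sinusoidal cells gained Klf4, and male-type ones gained Klf2 and Klf4 and lost Ednrb and Ptgis. For PV over S and S2, female-type control cells gained Ece1 and lost Nos3 and Kcnj8. Male-type PV cells gained Klf2 (lower) and Edn1 (higher) between the libraries and lost Ptgis and Slco2a1. They numbered only 9 in the control and 30 in the c-Maf KO library, and the Edn1 call rested on 4 control UMIs. In male-type cells of PV the log2 ratio of Ptgis was 0.57 on 3 UMIs and that of Slco2a1 was 0.12 on 45 UMIs, opposite to the main direction. Scaling by the median ratio, leaving out doublets, leaving out KOS_2 and giving both libraries the control mix of cell groups left the sinusoidal and whole-endothelium counts at 6 where run. The settings for comparisons within a library, the comparisons of cell groups other than between genotypes, and leaving out PV cells with Dcn or collagen transcripts were added after the data were seen.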
